A study of Mus musculus with 3 samples.

Results

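The 37 genes described here are the mouse genes of the autophagy machinery and its cargo receptors. They were taken by symbol, with no threshold on a measured value, from the 55536 mouse genes of the gene quantification, and all 37 symbols were found. The list holds the ULK initiation complex (5 genes), the class III PI3-kinase complexes (5), lipid transfer and membrane supply (4), the PI3P effectors (2), the conjugation enzymes (7), the ATG4 proteases (4), the ATG8 proteins (5), cargo receptors (4) and a tether (1).

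Autophagy encloses cytoplasm, protein aggregates, damaged organelles or bacteria in a double membrane, the autophagosome, which fuses with lysosomes. The ULK kinase complex starts the process, the class III PI3-kinase makes the lipid PI3P on the growing membrane, PI3P effectors bind that lipid, and lipid transfer proteins feed the membrane. Small ubiquitin-like proteins of the ATG8 family are then joined to the membrane by a conjugation system, and cargo receptors bind both the cargo and ATG8. In macrophages part of the same machinery also acts on single membranes, as in LC3-associated phagocytosis.

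Polyadenylated RNA was sequenced from bone marrow-derived macrophages, primary phagocytes grown out of the marrow of C57BL/6J mice, in 3 libraries. They form 1 group and are numbered by the labels as biological replicates 1, 2 and 3. All cells had been exposed for 180 min to 100 ng/mL of a stimulus that the labels name in conflicting ways, as lipid A in the description and as lipoprotein A, a protein, in the source name and the treatment field. Sex and age were not collected, per the labels, and the donor identifier is identical in all 3, so p-values and spread here measure only these libraries and may be technical. No unstimulated group was analysed here, and no value below is a response to the stimulus.

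Expected counts over mouse genes totalled 24450338 for replicate 1, 34641026 for replicate 2 and 60595742 for replicate 3. Levels are given as TPM, which are shares of all transcripts scaled for transcript length so that genes can be set side by side. At 1 TPM or more in every replicate, 10026 genes were called detected. All 10 macrophage markers were detected, and no marker of T cells, B cells, erythroid, stromal or epithelial cells was. Of 9 neutrophil markers 3 were detected, and their summed level over all 9 was 83.5, 715 and 48.6 TPM, with Ly6g at 0 in all 3 libraries, so replicate 2 stood apart. An rRNA gene, CT010467.1, took 2.09%, 1.89% and 8.4% of the counts, so replicate 3 stood apart in that respect. In bulk samples fewer cells of a type and less RNA per cell cannot be told apart.

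The ATG8 family is where the machinery meets its cargo. Its proteins are made with a short tail, ATG4 proteases cut the tail off after a glycine, and that glycine is joined to a membrane lipid. The last 45 coding bases of each gene before the stop codon are shown because this end carries the site; the capitals mark the last glycine codon. They come from the transcripts of the GENCODE M21 annotation (mm10), read on the plus strand in every case.
Map1lc3a: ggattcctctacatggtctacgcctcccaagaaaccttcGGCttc
Map1lc3b: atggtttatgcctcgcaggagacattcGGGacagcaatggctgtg
Gabarap: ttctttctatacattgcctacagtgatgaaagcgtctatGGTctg
Gabarapl1: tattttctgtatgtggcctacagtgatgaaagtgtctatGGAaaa
Gabarapl2: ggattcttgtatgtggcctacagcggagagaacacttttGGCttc
These stretches lie at chr2:155277590-155277634 (Map1lc3a), chr8:121596723-121596767 (Map1lc3b), chr11:69994477-69994521 (Gabarap), chr6:129541120-129541164 (Gabarapl1) and chr8:111952358-111952402 (Gabarapl2), all in coding exons. A single codon followed the glycine codon in Map1lc3a, Gabarap, Gabarapl1 and Gabarapl2, and 5 codons followed it in Map1lc3b. The glycine codon was number 120 in the pair of Map1lc3 genes and number 116 in the Gabarap genes, counted from the start codon. Over their coding bases Map1lc3a and Map1lc3b were 76.5% identical and Gabarap and Gabarapl1 74.9%, whereas the least alike pair, Map1lc3a and Gabarapl1, shared 53.4%.

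All 37 genes were detected. Their mean levels ran from 2.35 TPM for Atg2b to 1424 TPM for Sqstm1, and 17 of them stood above the median detected gene, whose mean level was 14.8 TPM. A mean of 100 TPM or more was reached by 3 genes, Sqstm1, Gabarap and Vmp1. A further 11 lay between 20 and 100 TPM, 16 between 5 and 20 TPM and 7 under 5 TPM, so most of the core machinery was present at low to middle levels. The 37 genes summed to 2876, 3367 and 3198 TPM, and Sqstm1 and Gabarap alone made up 67%, 73.9% and 73.2% of that sum. When the genes were ordered by mean level, only 6 of the 36 neighbouring pairs had replicate ranges that did not overlap: Sqstm1 over Gabarap, Gabarap over Vmp1, Becn1 over Tecpr1, Atg3 over Atg7, Atg7 over Atg4b, and Map1lc3a over Atg5. The other neighbours did not differ beyond their spread.

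**Figure D1:**
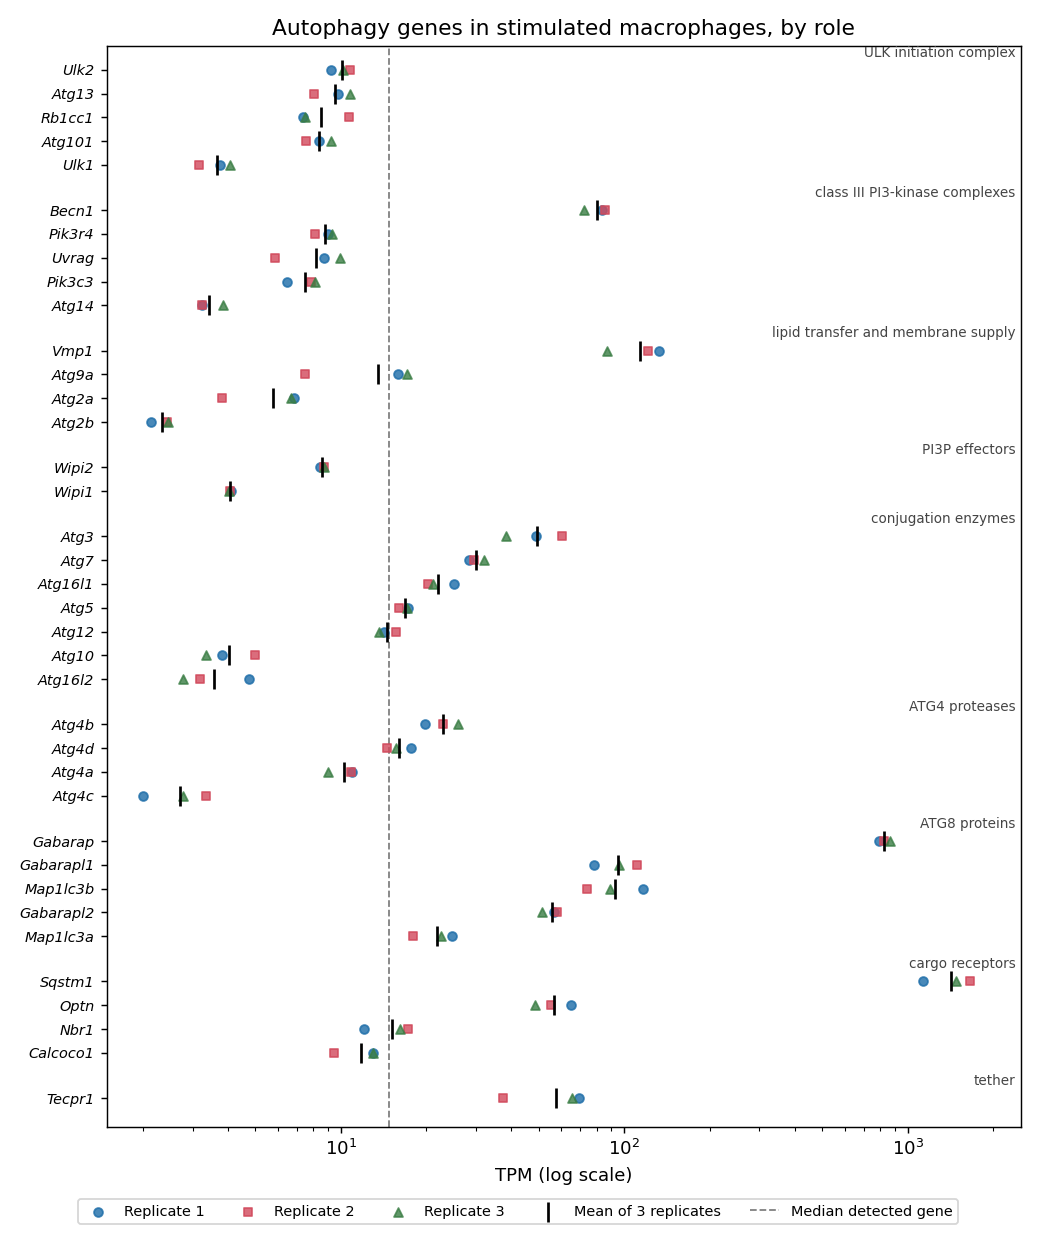
Level of each of the 37 autophagy genes in TPM (log scale), grouped by role and ordered by mean within a role; points are the 3 replicates, the black bar is their mean and the dashed line is the median detected gene at 14.8 TPM. Sqstm1 and Gabarap lie apart at the right, and Atg9a, Atg2a and Tecpr1 have a replicate 2 point well to the left of the other two.

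Among the cargo receptors Sqstm1, which encodes p62, stood far above the other three. p62 binds ubiquitin and ATG8 proteins and is itself broken down by autophagy. Sqstm1 (chromosome 11, 50199366 to 50210827, minus strand) was at 1133, 1662 and 1477 TPM in replicates 1, 2 and 3, with a mean of 1424 ± 269 (SD, n = 3), rank 90 among detected genes. It was lowest in replicate 1 and highest in replicate 2. Nbr1, a receptor of related domain build, was at 12.1, 17.3 and 16.2 TPM and was likewise lowest in replicate 1 and highest in replicate 2. Their log2 ratio was 6.53, 6.57 and 6.50, a 92.9-fold difference with an SD of 0.04, the smallest spread of all pairs compared together with that of Wipi1 and Wipi2. Optn, optineurin, a receptor for ubiquitin-coated mitochondria and bacteria, stood at 65.1, 55.2 and 48.6 TPM. Calcoco1, a receptor for parts of the endoplasmic reticulum, had the lowest mean, at 13, 9.45 and 13 TPM, although Nbr1 was below it in replicate 1, and Optn was above it in every replicate. The tether Tecpr1, which binds the ATG12-ATG5 conjugate and lysosomal membranes, was at 69.3, 37.3 and 65.4 TPM, with replicate 2 at the bottom by a wide margin.

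The ATG8 family was dominated by Gabarap (chromosome 11, 69991143 to 69994951, plus strand) at 795, 825 and 865 TPM, a mean of 828 ± 35 (SD, n = 3) and rank 171 among detected genes. These 3 values lay close together, with the highest only 1.09 times the lowest. Gabarap made up 74.2%, 76% and 76.9% of the summed TPM of the 5 genes. Gabarapl1 was at 78.4, 111 and 96.1 TPM and Map1lc3b, which encodes the widely used autophagosome marker LC3B, at 116, 73.7 and 89.3 TPM. These 2 genes overlapped and changed places between replicates, with mean shares of 8.7% ± 1.47 and 8.52% ± 2.09 (SD, n = 3). Gabarapl2 followed at 56.6, 58.1 and 51.3 TPM with a share of 5.07% ± 0.438, and Map1lc3a was lowest at 24.7, 18 and 22.6 TPM with 1.99% ± 0.327. The Gabarap genes together thus held most of the family's TPM, and the order of Gabarap first and Map1lc3a last was the same in every replicate. In expected counts, which are not scaled for transcript length, the mean share of Gabarap was 64.1% and that of Map1lc3b 16%. Near-identical processed pseudogenes could take or give reads: Gm6055 matches the Map1lc3b transcript over 378 bases at 99.7% identity and was listed at 9.34, 1.07 and 1.82 TPM, and Gm3724 matches Gabarapl2 over 349 bases at 99.4% and was listed at 1.32, 1.07 and 1.06 TPM. How far this bears on the levels of Map1lc3b and Gabarapl2 was not measured.

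**Figure D2:**
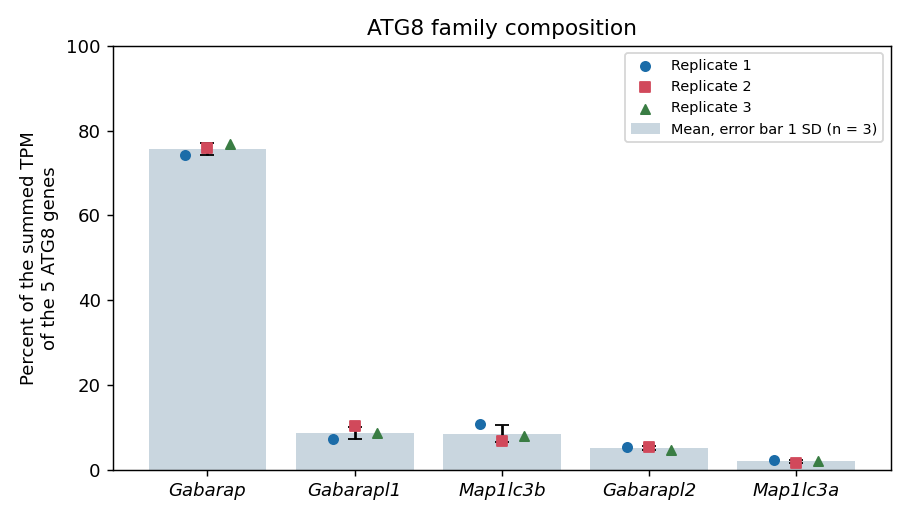
Share of each ATG8 gene in the summed TPM of the 5 genes, in percent; bars are means of 3 replicates, error bars 1 SD and points the replicates. Gabarap holds 74.2% to 76.9% in every replicate, and the points of Gabarapl1 and Map1lc3b overlap.

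The conjugation enzymes join ATG8 proteins to lipid and ATG12 to ATG5. Atg3, the E2-like enzyme that passes ATG8 to lipid, was the highest of the 7 at 49, 60.4 and 38.4 TPM; it was highest in replicate 2 and lowest in replicate 3. Atg7, the E1-like enzyme that activates both ATG8 and ATG12, came next at 28.3, 29.6 and 32 TPM. Atg16l1, the scaffold that places the conjugate on membranes, had 25, 20.3 and 21.1 TPM. Atg5 and its partner Atg12 lay close together, with means of 16.8 and 14.5 TPM, and Atg12 was below Atg5 in all 3 replicates by a log2 difference of only -0.22 ± 0.16. Atg10, the E2-like enzyme for ATG12, was at 3.81, 5 and 3.34 TPM, so the pair of E2-like enzymes differed 11.9-fold (log2 ratio 3.57 ± 0.08, SD, n = 3). Atg16l2, a relative of Atg16l1, had the lowest mean of the 7 at 4.75, 3.19 and 2.77 TPM, but was above Atg10 in replicate 1. In the second quantification it was above Atg10 in every replicate, at 9.51, 11.3 and 4.39 TPM against 3.42, 4.99 and 3.11 TPM.

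Of the ATG4 proteases, which trim ATG8 proteins and release them from membranes again, Atg4b was highest at 19.9, 23 and 25.9 TPM. Atg4d followed with a mean of 16 TPM and Atg4a with 10.3 TPM. Atg4c was the lowest at 2.01, 3.36 and 2.78 TPM, resting on 93, 220 and 308 expected counts, and its lowest value was in replicate 1. This order is by total TPM. On protein-coding transcripts alone Atg4d had a mean of 2.04 TPM, below Atg4c at 2.72 TPM, although Atg4d was above Atg4c in replicate 1. Atg4b was above Atg4a in all 3 replicates, 2.22-fold on average.

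In the ULK complex the 2 kinases differed. Ulk2 had the highest mean of the complex, at 9.22, 10.8 and 10.2 TPM, and Ulk1 was the lowest in every replicate at 3.75, 3.15 and 4.06 TPM, a 2.72-fold difference in the same direction in every replicate. Between them by mean lay the adaptor Atg13 at 9.54 TPM, which was above Ulk2 in replicates 1 and 3, the scaffold Rb1cc1 (FIP200) at 8.5 TPM and Atg101, which stabilises ATG13, at 8.36 TPM. In the second quantification Rb1cc1 was above Ulk2 in every replicate. Atg13 and Atg101 differed by a log2 ratio of only 0.18 ± 0.07. In the first quantification all 5 genes lay under the median detected gene, at 14.8 TPM. In the second, Rb1cc1 had a mean of 15.6 TPM, above that value.

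In the class III PI3-kinase complexes Becn1, the beclin 1 gene and the core subunit that other regulators bind, stood far above its partners at 83.7, 85.5 and 72.2 TPM, of which 14.7% on average lay on protein-coding transcripts (8.74, 11.1 and 15 TPM). The lipid kinase itself, Pik3c3 (VPS34), was at 6.47, 7.85 and 8.11 TPM, and its regulatory subunit Pik3r4 (VPS15) at a mean of 8.83 TPM. ATG14 and UVRAG bind the core in separate complexes, the first at autophagosome start sites and the second on endosomes. Atg14 was the lowest gene of the group at 3.24, 3.23 and 3.83 TPM. Uvrag, at 8.72, 5.87 and 9.96 TPM, was 2.3-fold above it, lowest in replicate 2, and higher than Atg14 in every replicate.

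Among genes for membrane supply, Vmp1, a lipid scramblase of the endoplasmic reticulum (chromosome 11, 86583865 to 86683836, minus strand), was the highest at 133, 121 and 87.2 TPM, lowest in replicate 3. Atg9a, the scramblase carried on vesicles to the growing membrane, was at 15.9, 7.49 and 17.1 TPM, so replicate 2 had less than either of the others by a wide margin. The lipid transfer proteins ATG2A and ATG2B bridge the endoplasmic reticulum and the growing membrane. Atg2a was at 6.82, 3.81 and 6.68 TPM, again lowest in replicate 2. Atg2b, at 2.14, 2.44 and 2.46 TPM, had the lowest mean of all 37 genes, but its range overlapped that of Atg4c, which was lower in replicate 1. On protein-coding transcripts alone Atg16l2 was lower than Atg2b, with means of 1.31 and 1.91 TPM. The PI3P effectors had narrow ranges in TPM: Wipi2, which recruits ATG16L1, had 8.42, 8.7 and 8.71 TPM and Wipi1 had 4.11, 4.06 and 4.05 TPM.

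Genes of like role were set against each other in 17 pairs as the log2 ratio of TPM + 0.1 within each replicate. In all 17 the ratio lay on the same side of 0 in all 3 replicates and its mean exceeded its SD, and in 14 the mean ratio was over 2-fold. A sign-flip permutation test over replicates, exact and two-sided, gave p = 0.25 for each pair, before and after Benjamini-Hochberg adjustment over the 17 pairs; this is the smallest p that 3 replicates allow, so no pair could pass 0.05. The 3 pairs under 2-fold were Atg13 and Atg101, Pik3c3 and Pik3r4, and Atg12 and Atg5, all subunits or partners of a common complex. Members of a complex that were not paired here could lie further apart, such as Atg13 and Ulk1, at means of 9.54 and 3.65 TPM. Pik3c3 over Pik3r4 was -0.24 ± 0.22 on the log2 scale and turned to 0.10 in the second quantification. Atg12 over Atg5 turned from -0.22 to 0.87 in expected counts without length scaling. The widest spread was that of Atg2a over Atg2b, at 1.63, 0.62 and 1.41, where replicate 2 was low.

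**Figure D3:**
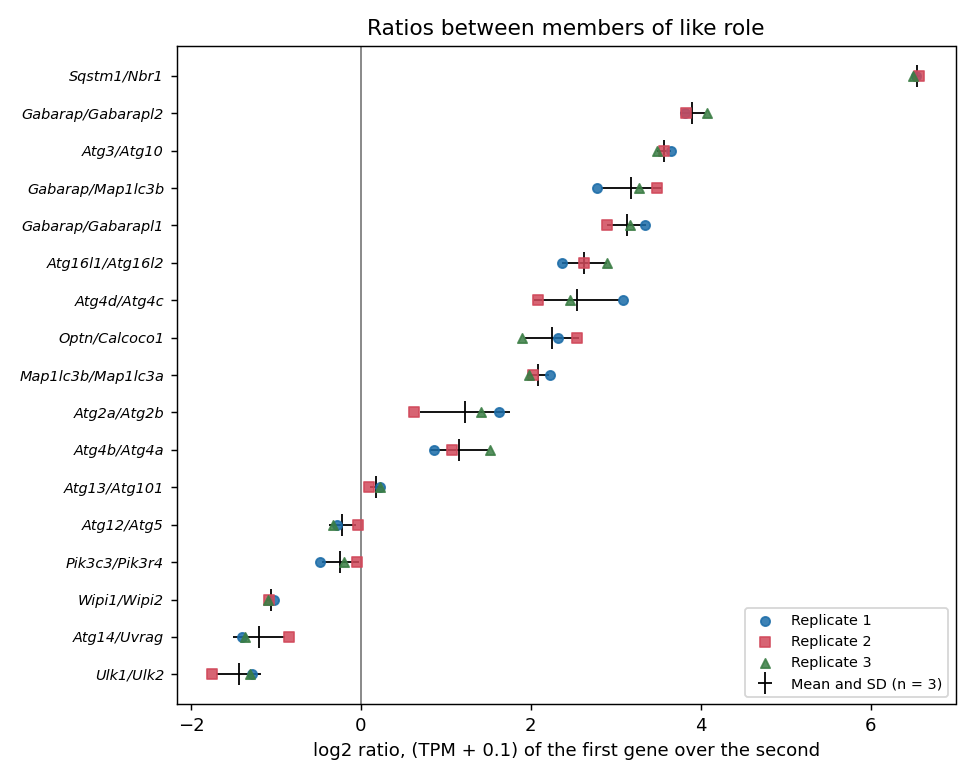
log2 ratio of TPM + 0.1 between members of like role in 17 pairs; points are the 3 replicates, and the black mark and line are mean and SD (n = 3). All points of a pair lie on the same side of 0, and Sqstm1 over Nbr1 is the most uneven pair at 6.54.

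Spread between the libraries was tested on rounded expected counts with a chi-square test of equal rates, with library sizes scaled by edgeR's TMM method and Benjamini-Hochberg adjustment over all 11611 genes tested. The test compares these libraries, not conditions, and its power grows with the counts. It called 31 of the 37 genes at an adjusted p under 0.05, beside 77.5% of all genes tested. The 6 genes not called were Becn1, Atg2b, Wipi1, Atg12, Atg4a and Gabarapl2; Wipi2, whose TPM range was narrow, was called on counts (adjusted p = 1.92e-05). By size, the highest replicate was at least 1.5 times the lowest in 9 of the 37, beside 35.3% of detected genes. The 9 were Atg9a (2.29 times), Tecpr1 (1.86), Atg2a (1.79), Atg16l2 (1.71), Uvrag (1.7), Atg4c (1.67), Map1lc3b (1.57), Atg3 (1.57) and Vmp1 (1.53). In TPM without the rRNA gene only 7 genes passed, and in TMM-scaled CPM also 7, so membership near the bound depended on the scaling. Atg3 and Vmp1, both near the bound, were lowest in replicate 3, where the rRNA gene took 8.4% of the counts. Without replicate 2 there were 2 of the 37 past 1.5 times, beside 13.8% of detected genes. Without replicate 1 there were 5, beside 20.8%, and without replicate 3 also 5, beside 22.1%, so the counts of all genes dropped under the same settings. The median coefficient of variation was 13.1% over the 37 genes and 16.5% over detected genes.

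Replicate 2 held the lowest value in 5 of those 9 genes: Atg9a, Tecpr1, Atg2a, Uvrag and Map1lc3b. No such share is given for all detected genes past the same bound, so this count describes the 9 genes only. Over all 37 genes replicate 2 held the lowest value in 15, beside 30.4% of detected genes. Its deviation, the log2 of TPM + 0.1 minus the mean of the other two replicates, was -1.13 for Atg9a, -0.85 for Tecpr1, -0.81 for Atg2a and -0.66 for Uvrag, whereas Rb1cc1 stood at 0.51, Atg4c at 0.49 and Sqstm1 at 0.36. The genes thus did not move as a block, and their median deviation was -0.01 beside 0.08 for all detected genes. GC content of the leading transcript, the one with the highest share, went with this deviation. Spearman's rho was -0.49 over 10017 detected genes and -0.73 over the 37 (Pearson's r -0.43 and -0.71), given as a description across genes of the same libraries. For the deviation of replicate 3 rho was 0.44 and 0.58, and for that of replicate 1 it was 0.14 and 0.36. Each deviation is taken against the other replicates, so the trend cannot be assigned to replicate 2 alone. With the median trend over 20 bins of GC content subtracted, the replicate 2 deviation of Rb1cc1 became 0.05, that of Atg2a -0.50 and that of Tecpr1 -0.62. Atg9a at -0.96, Uvrag at -0.75 and Sqstm1 at 0.45 kept most of theirs or gained. Neutrophil markers were also highest in replicate 2, as given above, and their part in these values was not tested.

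**Figure D4:**
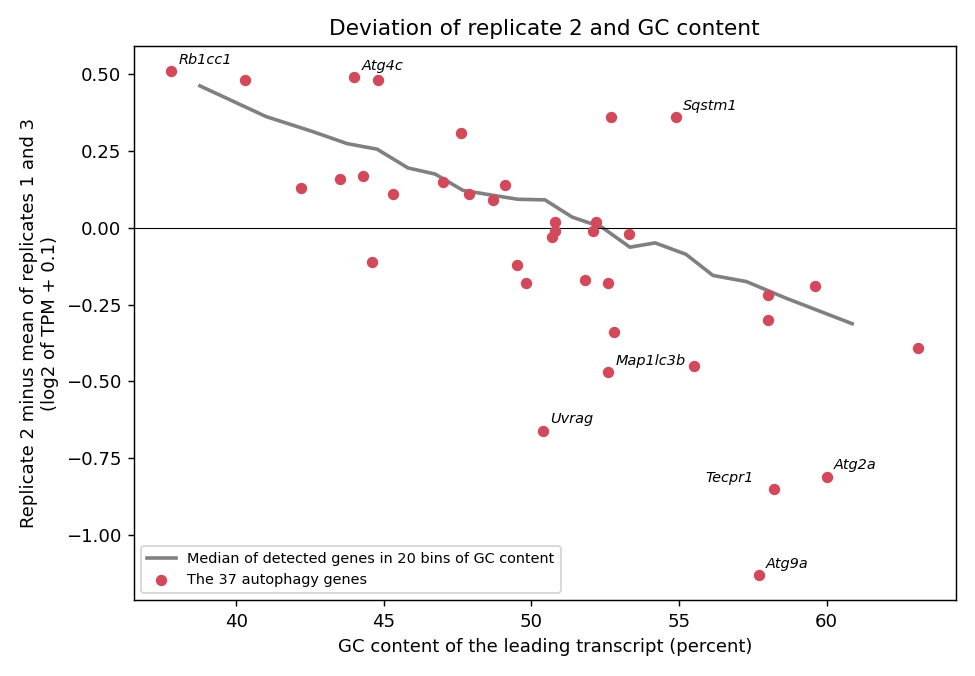
Deviation of replicate 2 from the mean of replicates 1 and 3 (log2 of TPM + 0.1) against GC content of the leading transcript in percent; points are the 37 genes and the line is the median of detected genes in 20 bins of GC content. Genes of high GC content lie lower, and Atg9a and Uvrag lie well under the line.

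A second quantification of the same libraries, made directly from the reads and summed over transcripts, gave lower values for the median detected gene, by 1.31-fold, 1.04-fold and 1.2-fold in replicates 1, 2 and 3. Only Atg16l2 was at least 1.5-fold apart in the same direction in every replicate (1 of 37, beside 3.53% of detected genes). It was 2.21-fold higher in the second quantification, at 9.51, 11.3 and 4.39 TPM. With the ratio centred on the median gene, Rb1cc1 joined it (2 of 37, beside 3.7%); the second quantification gave Rb1cc1 12.6, 24.2 and 10.2 TPM, in which a 519-base processed transcript, Rb1cc1-202, held 46.4% on average against 13.8% in the first. Atg16l2 shares 25 exon bases with Fchsd2 on the opposite strand, which stood at a mean of 173 TPM. The remaining 35 genes differed between quantifications by less than that bound in at least 1 replicate.

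The transcript with the highest share was the same in both quantifications for 34 of the 37 genes and differed for 3, Rb1cc1, Atg2b and Atg16l2, beside 9.22% of detected genes with several transcripts. By mean share in the first quantification, a single transcript held 90% or more of the TPM in 12 genes. Sqstm1 was among them with Sqstm1-202 at 94.1%, 93.3% and 93.7%. So was Uvrag, although Uvrag-201 held 80% in replicate 3 and a mean of 34.2% in the second quantification. In 9 genes no transcript reached a mean share of 50%, although Pik3r4-201 held 51.4% and 56% in replicates 2 and 3. No share over all detected genes is given beside these counts, which describe the 37 genes only. The leading transcript was not annotated as protein-coding in 2 genes, Becn1 and Atg4d, beside 5.83% of protein-coding genes with several transcripts. For Becn1 it was Becn1-201, a target of nonsense-mediated decay by annotation, at 34.6%, 36.4% and 38.6% of the gene's TPM. For Atg4d it was Atg4d-203, which keeps an intron, at 63.1%, 57.8% and 64.3%.

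Summed over all transcripts of protein-coding type, 4 genes had a mean under 50% of their TPM. These were Atg4d at 12.7% ± 1.32, Becn1 at 14.7% ± 5.4, Atg16l2 at 40.5% ± 20.8 and Vmp1 at 46.8% ± 8.65 (SD, n = 3). In replicate 3 Atg16l2 was at 62.5% and Vmp1 at 55.9%, above that bound. The share of detected coding genes under that bound was 5.99%, and the median coding share was 94.5% over the 37 genes and 95.9% over detected coding genes. On protein-coding transcripts alone, Becn1 stood at 8.74, 11.1 and 15 TPM in the first quantification. There it was still above Pik3c3 at 6.47, 7.84 and 8.1 TPM and Pik3r4 at 5.02, 4.5 and 5.6 TPM on the same basis. Coding Becn1 was lowest in replicate 1, whereas the total of Becn1 was lowest in replicate 3. Atg4d stood at 2.33, 2.01 and 1.77 TPM, which turned its log2 ratio over Atg4c from 2.54 to -0.38. In the second quantification 6 genes had a mean under 50%: Atg4d at 7.47%, Becn1 at 8.04%, Atg16l2 at 17.8%, Uvrag at 34.2%, Rb1cc1 at 36.1% and Vmp1 at 45%. The 5.99% above is for the first quantification. No such share is given for the second, so the rise from 4 to 6 cannot be set beside all coding genes. The first quantification had put Uvrag at 91.8% and Rb1cc1 at 62.9%, so the coding share of these 2 genes depended on the quantification. In the second, the means were 68.8 TPM for Becn1, with 8.04% coding, and 6.25 TPM for Pik3c3, with 100% coding. On these means coding Becn1 lay below Pik3c3, so that order depended on the quantification too.

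Vmp1 was split between its full-length coding transcript Vmp1-201, at 30.7%, 35.3% and 33%, a 326-base coding transcript, Vmp1-205, and short processed transcripts. Of the processed transcripts Vmp1-206, of 931 bases, took 45.1%, 24.2% and 16.3%, or 60.1, 29.3 and 14.2 TPM. Coding Vmp1 transcripts summed to 51.5, 55.3 and 48.8 TPM. The difference between replicates in total Vmp1 lay mostly in the processed transcripts. The coding transcripts also differed within their sum. Vmp1-201 was at 40.9, 42.6 and 28.8 TPM, lowest in replicate 3, and Vmp1-205 at 10.7, 12.7 and 20 TPM, highest there. Vmp1-206 lies 862 bases from Mir21a, the miR-21 gene that lies within the last part of Vmp1, whose own entry was at 0 in all 3 libraries. Its 92 bases lie within Vmp1-201 on the same strand. Libraries of polyadenylated RNA do not measure so short an RNA, so the 0 gives no level of miR-21. Some of these genes share exon bases with genes on the other strand. The labels do not state whether strand was used in counting, and the part of such overlap in the shares was not tested. Kri1 shares 1405 exon bases with Atg4d and stood at 18.8, 22.6 and 17.5 TPM; 23.6% of the exon bases of the coding Atg4d-201, 13.6% of those of Atg4d-203 and none of those of Atg4d-205 lie in Kri1 exons. Cntd1 shares 3104 exon bases with Becn1 and was at 0.07 TPM or less. Gskip shares 383 exon bases with Atg2b and was at 11.5, 14.1 and 9.41 TPM, above Atg2b itself.

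**Figure D5:**
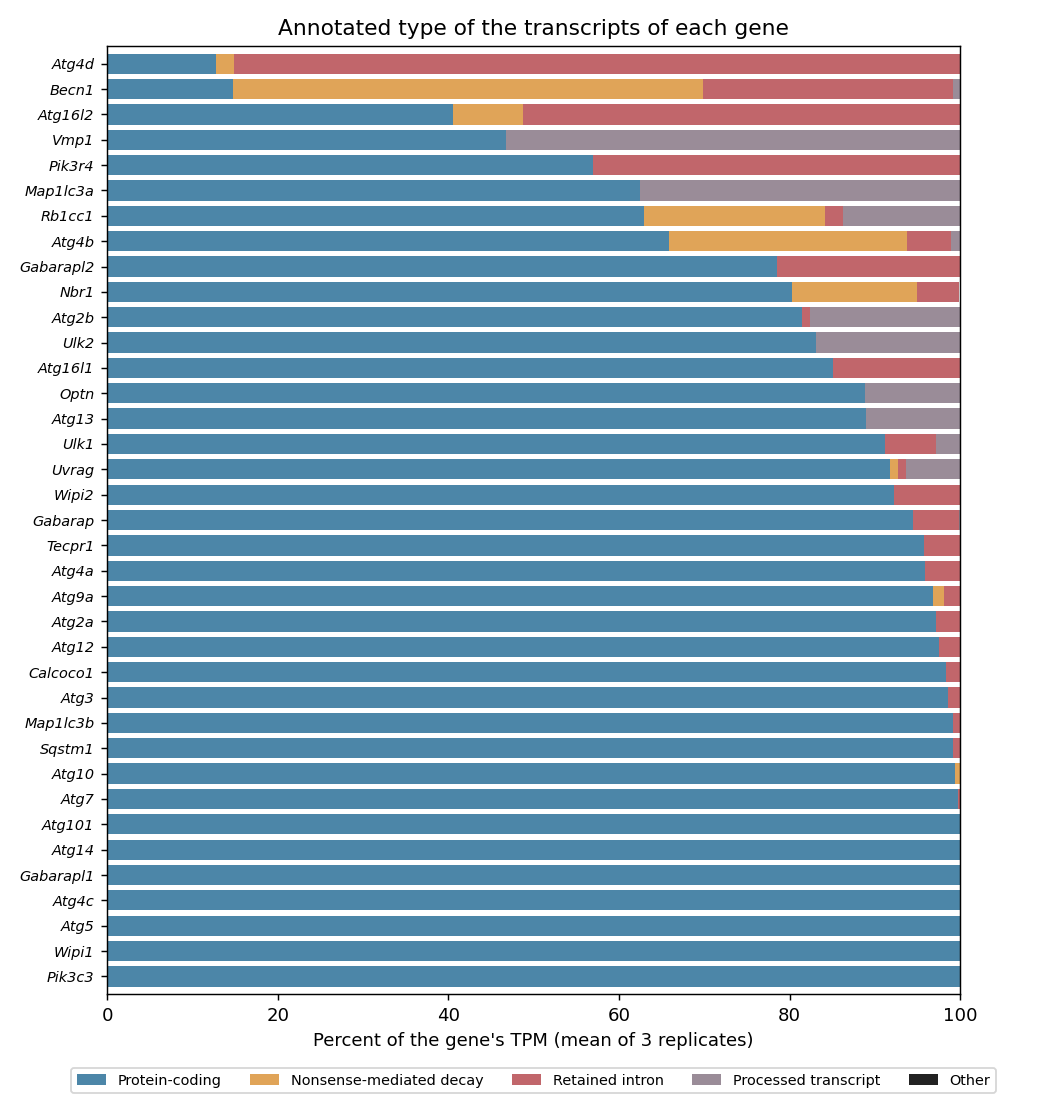
Share of each gene's TPM by annotated type of transcript, in percent, mean of 3 replicates, for the 37 genes ordered by the protein-coding share. Atg4d, Becn1, Atg16l2 and Vmp1 lie under 50%, with retained-intron, nonsense-mediated decay or processed transcripts making up the rest.

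Around these genes, 68 others of the pathway were listed by function, of which 67 symbols were found, 60 were detected and 53 of 65 tested were called by the chi-square test, beside the 77.5% of all genes given above. The spread of 11 reached 1.5 times, beside 35.3% of detected genes. The median detected gene of these lists had a mean of 27 TPM. For nutrient and energy control 11 of 14 genes were detected, from Sesn1, a sestrin, at a mean of 2.37 TPM to Rheb, the GTPase that switches on mTORC1, at 57.5 TPM. Prkaa2, Sesn2 and Ddit4 were not detected. In the list of transcription factors of lysosome and autophagy genes, which also holds Keap1, not itself such a factor, 8 of 9 genes were detected. Tfec, a member of the MiT family found mainly in myeloid cells, was highest at 189, 170.4 and 153 TPM, and Tfeb, the best known of that family, was at 2.48, 2.03 and 1.59 TPM. Foxo1 was the lowest detected factor at a mean of 1.59 TPM, and Foxo3 fell short of 1 TPM in replicate 2.

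Of the regulators of the PI3-kinase complexes 7 of 8 were detected, from Rubcn, an inhibitor that binds UVRAG, at 5.09 TPM to Sh3glb1, a membrane-bending partner of UVRAG, at 298 TPM; Bcl2, which binds beclin 1, was not detected. Other ATG and membrane genes ran from Wdr45 at 7.51 TPM to Tex264, a receptor of the endoplasmic reticulum, at 60.8 TPM. Atg9b was not detected, and the symbol Gabarapl3 was not found. Among other cargo and organelle receptors 13 of 14 were detected. Tax1bp1, a ubiquitin-binding receptor, was highest at 182, 173 and 143 TPM, while Calcoco2 was listed at 0 in all 3 libraries. All 15 genes of autophagosome-lysosome fusion were detected, from Epg5, a tethering factor, at 1.77 TPM to Lamp1, a major lysosomal membrane protein, at 2316 ± 301 TPM (SD, n = 3). Sqstm1 lay above Tax1bp1, the highest of the other receptors, and below Lamp1 in every replicate.

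Promoter windows from RefSeq (GRCm38.p6, 250 bases before to 50 bases after a gene's start) were found for 31 of the 37 genes, in 36 entries. The window table gave none for Rb1cc1, Becn1, Pik3c3, Atg16l1, Atg12 and Map1lc3a. Both strands were searched. The E-box CACGTG was in 4 entries, those of Atg14, Atg3, Atg5 and Atg7 (11.1% of entries, beside 7.15% of all 32851). Its longer form TCACGTGA, which contains the E-box and is known as the core of the CLEAR element read by TFEB-family factors, was in the Atg3 entry only (2.78% beside 0.974%). TGACNNNGC, the core of the antioxidant response element, was in 6 entries of 4 genes, Atg13, Map1lc3b, Ulk2 and Vmp1 (16.7% beside 12.4%). The NF-kB consensus was in those of Atg16l2 and Sqstm1 (5.56% beside 5.8%). The stretches around the longer E-box of Atg3 and the NF-kB match of Sqstm1, the highest genes of their roles, are shown with the motif in capitals, each cut at the gene start of GENCODE.
Atg3: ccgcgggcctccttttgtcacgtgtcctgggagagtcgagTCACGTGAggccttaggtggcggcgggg
Sqstm1: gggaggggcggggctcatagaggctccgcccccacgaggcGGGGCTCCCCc
The Atg3 stretch is chr16:45158717-45158784 on the plus strand, with the motif 72 to 65 bases before the RefSeq start, and that of Sqstm1 is chr11:50210828-50210878 on the minus strand, with the motif 18 to 9 bases before it. These are matches of letters, and no measurement of binding was made here.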

How the data were processed

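The authors deposited, for each of the 3 libraries, a gene and a transcript quantification holding expected counts (estimated fragment counts), TPM and FPKM, per the file headers, and a second transcript quantification holding estimated counts and TPM. The deposited transcript file also gives each transcript's percent of its gene, which was recomputed from TPM here. Text files deposited beside them name the mm10 assembly and GENCODE M21; the aligner, quantifiers and strand setting were not given in the sources used here. Only mouse gene entries entered library sizes. Expected counts were rounded for the chi-square test (edgeR 4.0.16, R 4.3.3, default filter, TMM); a single group leaves no contrast for a quasi-likelihood test. Logs used a pseudocount of 0.1. Near copies were found with BLAST 2.17.0 at 98% identity over 300 bases or more, and the test was checked on simulated data. All 37 genes are named; values in every replicate are given for the highest and lowest gene of each role and for genes past the 1.5-fold bounds, and others were added after their values were seen, as were the neighbours named for overlap. Of other pathway lists the highest, lowest and undetected genes are named, except 1 that is not reported here. The rule for the members uses symbols only, but the members and lists were chosen with earlier results of these data known. Protein features planned for the ATG8 family and the receptors were not computed, and coding bases were used instead. FPKM served only as an alternative for ranks and detection. Depth bears on counting error only; the labels mention no molecular identifiers.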

Additional observations from a re-analysis of the deposited data

How the results depend on the processing

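The libraries differ in depth, which limits the low genes most, and 1 group of 3 libraries with no control limits every statement to levels and spread. No paired analysis was possible because there is only 1 group. Every alternative setting listed was run; those on protein-coding transcripts, the rRNA gene, GC content, centring and the NF-kB motif were chosen after seeing the data.

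The chi-square calls were 18 to 26 of 37 genes with a replicate left out, beside 50.6% to 64.3% of all genes, and 49.6% of all genes were called with no filter on low counts. The count of genes past 1.5 times between replicates was 9. It was 1 at 2-fold (beside 11.3% of detected genes) and 2 to 5 with a replicate left out (13.8% to 22.1%). In TMM-scaled CPM it was 7, and in TPM without the rRNA gene also 7. In the second quantification it was 14 (49.3% of the 9889 genes above 0 there), and 9 after centring. No share over all genes is given for the settings with TMM, without the rRNA gene or with centring. The median deviation of replicate 2 was -0.10 in TMM-scaled CPM, -0.08 with the GC trend removed, -0.06 without the rRNA gene and 0.24 in the second quantification, where that of all detected genes was 0.33; relative to all detected genes it was -0.09 in TPM and in the second quantification alike. The genes 1.5-fold apart between quantifications numbered 0 at 2-fold, 0 with a pseudocount of 1, 2 after centring, and 1 to 2 with a replicate left out.

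In expected counts the ATG8 shares were 1.49% for Map1lc3a, 16% for Map1lc3b, 64.1% for Gabarap, 12.2% for Gabarapl1 and 6.22% for Gabarapl2; the second quantification gave 11.1% for Map1lc3b, 70.8% for Gabarap and 6.18% for Gabarapl2. In expected counts the log2 ratios were 3.42 for Map1lc3b/Map1lc3a, 2.41 for Gabarap/Gabarapl1, 2.02 for Gabarap/Map1lc3b, 1.77 for Atg13/Atg101, 0.87 for Atg12/Atg5, -1.88 for Wipi1/Wipi2 and 5.53 for Sqstm1/Nbr1. The second quantification gave 0.10 for Pik3c3/Pik3r4, -1.90 for Atg14/Uvrag and 1.32 for Atg16l1/Atg16l2. Protein-coding transcripts alone gave 2.75 for Map1lc3b/Map1lc3a, 0.56 for Pik3c3/Pik3r4, 3.77 for Atg16l1/Atg16l2 and -0.38 for Atg4d/Atg4c. The direction thus turned for Pik3c3/Pik3r4, Atg12/Atg5 and Atg4d/Atg4c; expected counts leave out length by construction, and for the others the cause was not tested.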

Other observations

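Vps39, a subunit of the HOPS tethering complex that brings autophagosomes and lysosomes together, stood at 15.5, 47.4 and 17.8 TPM in replicates 1, 2 and 3, a range of 3.06 times. Its expected counts were 1003, 1617 and 2597, and the chi-square test on counts, with edgeR's library scaling, did not call it (adjusted p = 0.177). Bnip3l, a mitochondrial receptor also known for clearing mitochondria from red cell precursors, was at 41.8, 101 and 54.7 TPM and was called on counts (1270, 3432 and 3856). Rubcnl, a relative of Rubcn, was at 13.2, 6.46 and 13.6 TPM, low in replicate 2. These genes were chosen after their values were seen.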
